A study of Mus musculus with 4 samples.

Results

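The chaperonin genes of the mouse encode the folding chambers of the cytosol and of mitochondria, and 10 of them were followed here in maps of Myc and Max binding. They were chosen by name from the 37310 genes of the GENCODE M1 annotation, of which 22380 are protein-coding: the 8 subunit genes of the cytosolic chaperonin (Tcp1, Cct2, Cct3, Cct4, Cct5, Cct6a, Cct7 and Cct8) and the 2 genes of the mitochondrial chaperonin (Hspd1 and Hspe1). The rule uses no measured value, though the genes were picked with earlier results of these data known. Hspd1 and Hspe1 start back to back from one divergent promoter, so the 10 genes have 9 promoters.

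The maps come from ChIP-Seq of E14 mouse embryonic stem cells (ESCs) and address which genes Myc and its partner Max bind in these cells. The Bio-Myc ChIP used streptavidin beads on 1 stable clone that expresses Myc with a Biotin tag at its N-terminus from the EF1α promoter, in cells that carry the biotin ligase BirA. Its control was a Mock ChIP with the same beads, on parental wild-type cells by the sample description and on BirA-ES cells without the tagged protein by the methods. The Max ChIP used an anti-Max antibody on parental wild-type E14 cells, with an IgG ChIP of the same cells as its control. Each of the 4 samples is 1 library, and separate data of the Mock and IgG libraries were not used here. The 2 peak lists, with 3962 peaks for Bio-Myc and 11570 for Max, give a position and a score for each peak and no read counts, so the depth behind a score is unknown. The score is −10 times the log10 of the p-value of the peak caller MACS, and its lowest value is 80 in both lists. With 1 library per ChIP there is no spread between replicates, and the values below are given without a test. The lists hold no expression values, so the labelled cell type could not be checked against markers.

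Chaperonins are ring-shaped machines that enclose an unfolded protein and let it fold inside a closed chamber, using ATP. The cytosolic chaperonin, called TRiC or CCT, is built from related but distinct subunits, each with its own gene, and actin and tubulin are its classical clients. The mitochondrial chaperonin is a ring of a single kind of subunit, Hsp60, the product of Hspd1, and is closed by a lid of Hsp10, the product of Hspe1. Myc binds DNA as a dimer with Max, with the E-box CACGTG as its best known site, and also binds variants such as CACGCG.

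All 7 genes with CACGTG under the Bio-Myc peak at their promoter are shown by the stretch around it, because these are the sequences in which the best known Myc and Max site lies. The stretches were read from mm9 in the direction of the gene, 5′ to 3′, and capitals mark CACGTG and CACGCG. They are Tcp1 at chr17:13110028-13110087 on the plus strand, Cct3 at chr3:88100291-88100350 (plus), Cct4 at chr11:22891318-22891377 (plus), Cct7 at chr6:85401109-85401138 (plus) and Cct8 at chr16:87496525-87496584 (minus). The Cct7 stretch touches an annotated exon and was kept to 30 bases.
Tcp1: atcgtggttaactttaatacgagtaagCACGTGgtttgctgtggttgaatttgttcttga
Cct3: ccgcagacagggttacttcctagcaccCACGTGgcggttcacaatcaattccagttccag
Cct4: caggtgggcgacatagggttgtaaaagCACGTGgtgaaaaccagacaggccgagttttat
Cct7: tgggccgcgacgCACGTGggcagccagagc
Cct8: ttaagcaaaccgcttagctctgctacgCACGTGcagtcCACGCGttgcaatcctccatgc

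The divergent Hspd1 and Hspe1 promoter is shown separately because it holds 4 CACGTG under one peak. The stretches are given in the direction of Hspd1, on the minus strand, and lie at chr1:55144236-55144295 (a), chr1:55144439-55144498 (b), chr1:55145150-55145179 (c) and chr1:55145407-55145466 (d). CACGTG lies in an intron of Hspd1 in stretches a and b, in the 5′ UTR of Hspe1 in stretch c, and in an intron of Hspe1 in stretch d.
Hspd1 a: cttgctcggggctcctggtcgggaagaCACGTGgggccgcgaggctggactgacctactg
Hspd1 b: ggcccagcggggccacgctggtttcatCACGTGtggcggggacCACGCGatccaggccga
Hspd1 c: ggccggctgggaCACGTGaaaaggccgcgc
Hspd1 d: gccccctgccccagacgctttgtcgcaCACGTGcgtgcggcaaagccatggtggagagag

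Between the starts of the first-listed transcripts of Hspd1 and Hspe1 lies GAANNTTC, the core of the heat shock element that the heat shock factors bind. The site also lies in an annotated UTR of Hspd1, which has another start further upstream. It is shown because it was, of the motifs searched, the one nearest to the centre of both peaks there, in the direction of Hspe1 at chr1:55144897-55144926 (plus strand), with capitals on the motif.
Hspe1: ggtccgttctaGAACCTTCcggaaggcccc

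Cct2, Cct5 and Cct6a had no CACGTG under either peak. For Cct5 the stretch around CACGCG is shown, at chr15:31531948-31532007 on the minus strand, with CACGCG in capitals. For Cct2 and Cct6a the 180 bases before the start are shown, at chr10:116500871-116501050 (minus) and chr5:130293135-130293314 (plus), with nothing in capitals. These are not the middle of the Cct2 peaks, whose centres lie after the start, at +240 (Bio-Myc) and +288 (Max). The Max peak of Cct2 reaches upstream only to −117. At Cct6a the centres lie at −53 (Bio-Myc) and −186 (Max).
Cct5: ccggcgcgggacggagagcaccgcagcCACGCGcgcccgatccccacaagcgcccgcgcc
Cct2: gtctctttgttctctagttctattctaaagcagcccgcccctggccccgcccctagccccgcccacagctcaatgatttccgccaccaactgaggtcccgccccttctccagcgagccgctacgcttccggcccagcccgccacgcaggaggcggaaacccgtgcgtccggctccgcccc
Cct6a: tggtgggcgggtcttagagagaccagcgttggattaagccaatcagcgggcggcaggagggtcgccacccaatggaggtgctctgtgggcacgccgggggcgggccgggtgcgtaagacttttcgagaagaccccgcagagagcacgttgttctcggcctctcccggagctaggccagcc

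Every chaperonin gene was bound by Bio-Myc and by Max within 1 kb of a transcription start site (TSS). The shares over all 22380 protein-coding genes were 14.6% for a Bio-Myc peak at that distance, 34.8% for a Max peak and 12.7% for both, against 10 of 10 chaperonin genes in each case. At each of the 9 promoters there was exactly 1 peak in each list, and in both lists it covered the reference TSS, the start of the gene's first-listed transcript. The Bio-Myc and Max peaks of a promoter lay over each other. They overlapped by 811 to 1893 bp, with centres 22 to 133.5 bp apart. The overlap took in 65.5% to 100% of the Bio-Myc peak and 85.5% to 100% of the Max peak.

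**Figure D1:**
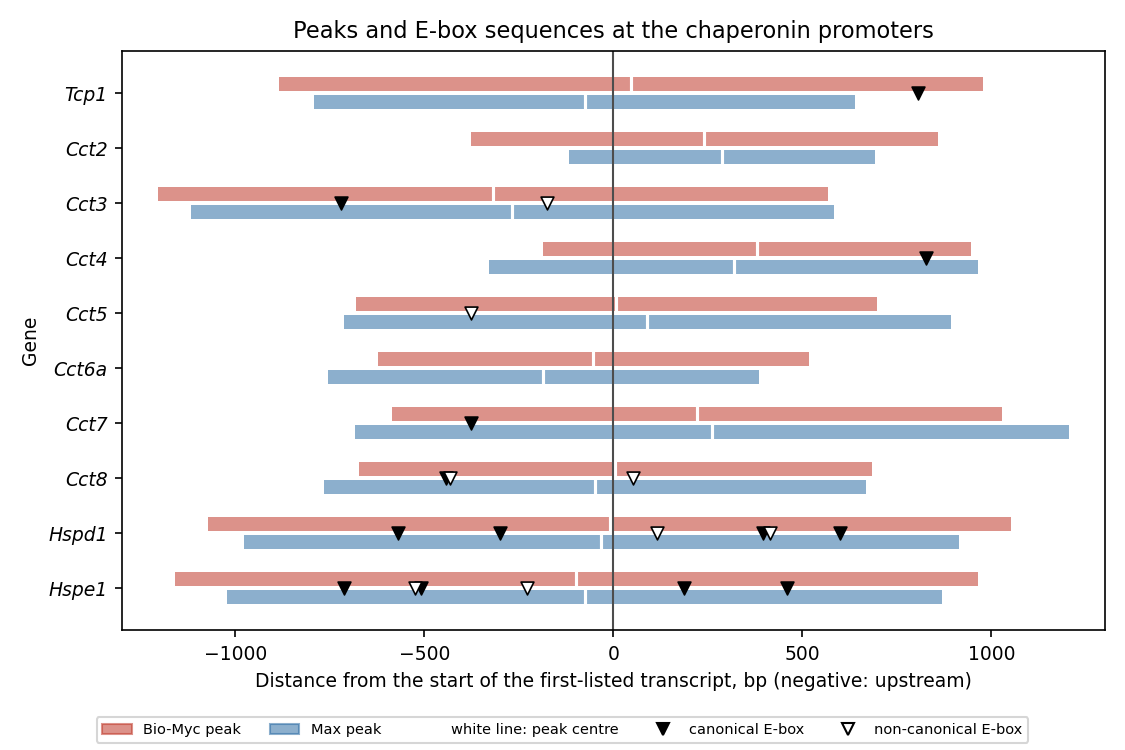
Bio-Myc peaks (red) and Max peaks (blue) at the 10 chaperonin genes, drawn to scale along the distance from the start of the first-listed transcript in bp, with negative values upstream in the direction of the gene. White lines mark peak centres, filled triangles CACGTG and open triangles CACGCG. Both peaks cover the start at all 10 genes, no CACGTG lies within the central 500 bp of a peak, and Hspd1 and Hspe1 show the same peaks from opposite sides.

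The peaks at the chaperonin promoters were wide and ranked high. The 9 Bio-Myc peaks had a median score of 379 (143 to 1040), against 140 over the 2802 peaks nearest to a coding promoter. Their median rank, where rank 1 is the highest score, was 273 of 3962, in the top 6.89% of the list. The 9 Max peaks had a median score of 509 (310 to 1076), against 185 over 6934 peaks at coding promoters, and a median rank of 928 of 11570, in the top 8.02%. Among genes with a Bio-Myc peak, 7 of 10 chaperonin genes had it in the top 10% of the list, against 13.0% of coding genes. Among genes with a Max peak, the count was 8 of 10, against 13.2% of coding genes. These counts are by gene, and Hspd1 and Hspe1 each entered with their shared peak. The median widths were 1378 bp (Bio-Myc) and 1433 bp (Max), where the peaks at coding promoters had medians of 1060 and 868 bp. Counted by gene, with the shared promoter entering for both of its genes, the median ranks were 255.5 and 631.5.

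**Figure D2:**
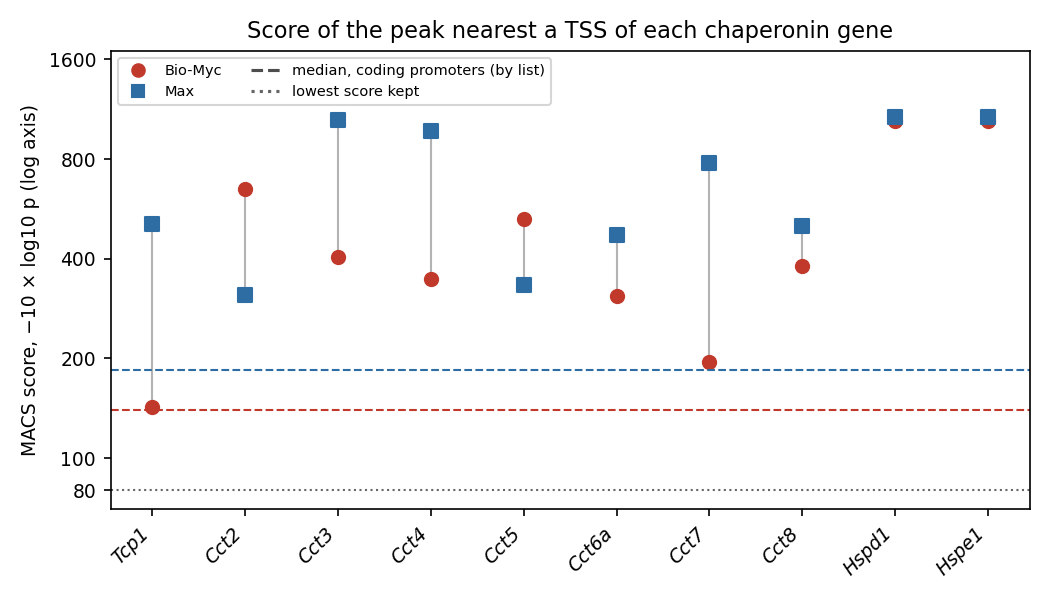
Score of the peak nearest to a TSS of each chaperonin gene in the Bio-Myc list (red circles) and the Max list (blue squares), 1 library each, on a log axis in units of −10 times log10 of the MACS p-value. Dashed lines are the medians over peaks at coding promoters (140 and 185) and the dotted line is the lowest score kept (80). Every point lies above the dashed line of its own list, with the Bio-Myc point of Tcp1 (143) nearest to it.

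The highest chaperonin score in both lists was that of the mitochondrial pair. Hspd1 (ENSMUSG00000025980.8, chr1:55134679-55145087, minus strand) encodes the Hsp60 subunit and Hspe1 (ENSMUSG00000073676.4, chr1:55144976-55148151, plus strand) encodes its Hsp10 lid. Their reference starts are 108 bp apart. The Bio-Myc peak over both starts, chr1:55143815-55145941, had a score of 1040 and rank 15 of 3962, in the top 0.379% of the list. The Max peak, chr1:55143954-55145846, had a score of 1076 and rank 131 of 11570, in the top 1.13%. These were also the widest chaperonin peaks, at 2127 bp in the Bio-Myc list and 1893 bp in the Max list. Since the pair shares its peaks, the values of Hspd1 and Hspe1 are 1 measurement and cannot be told apart.

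Among the cytosolic subunits, Cct2 had the highest Bio-Myc score and the lowest Max score. Cct2 (ENSMUSG00000034024.7, chr10:116488054-116500870, minus strand) had a Bio-Myc peak at chr10:116500011-116501248 with a score of 650 (rank 71). Its Max peak, chr10:116500177-116500987, had a score of 310 (rank 2304) and, at 811 bp, was the narrowest of the 18 peaks counted over the 9 promoters. Cct5 (ENSMUSG00000022234.8, chr15:31520555-31531602, minus strand) showed the same order of its scores. Its Bio-Myc peak, chr15:31530905-31532282, scored 529 (rank 118), and its Max peak, chr15:31530709-31532315, scored 334 (rank 2022). Scores of the lists are not on 1 scale, so their order at a gene is read only against that at other genes. Cct2 and Cct5 were the 2 of 10 chaperonin genes whose Bio-Myc score was above the Max score, where 21.8% of the 2832 coding genes with both peaks had that order.

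At the other cytosolic subunits the Max score was the higher one. Cct3 (ENSMUSG00000001416.7, chr3:88101038-88125689, plus strand) had scores of 404 (rank 238) at chr3:88099834-88101607 for Bio-Myc and 1049 (rank 144) at chr3:88099920-88101621 for Max. Cct4 (ENSMUSG00000007739.4, chr11:22890519-22903780, plus strand) had 347 (rank 336) at chr11:22890333-22891465 for Bio-Myc and 971 (rank 184) at chr11:22890190-22891484 for Max. Both therefore stood in the top 10% of both lists. Cct8 (ENSMUSG00000025613.6, chr16:87483570-87496114, minus strand) did so too, with 379 (rank 273) at chr16:87495431-87496788 for Bio-Myc and 501 (rank 967) at chr16:87495447-87496879 for Max. Cct6a (ENSMUSG00000029447.8, chr5:130293315-130321696, plus strand) lay just outside the top 10% for Bio-Myc, with 308 (rank 419, top 10.6%) at chr5:130292692-130293833, and had 472 (rank 1071) at chr5:130292559-130293699 for Max.

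Tcp1 and Cct7 had the lowest Bio-Myc scores of the chaperonin genes and high Max scores. Cct7 (ENSMUSG00000030007.6, chr6:85401499-85418471, plus strand) scored 194 (rank 1009, top 25.5%) at chr6:85400912-85402527 for Bio-Myc and 778 (rank 335, top 2.90%) at chr6:85400814-85402704 for Max. Tcp1 (ENSMUSG00000068039.6, chr17:13108567-13117933, plus strand), which names the family and encodes the alpha subunit, scored 143 (rank 1712, top 43.2%) at chr17:13108363-13110225 for Bio-Myc. Its Max peak at chr17:13108457-13109886 scored 509 (rank 928, top 8.02%). The Bio-Myc peak of Tcp1 was thus, of the 9, the one nearest to the median score of coding promoters (140), while its Max peak held the middle rank of the 9.

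The order of the 9 promoters by Bio-Myc score was Hspd1 and Hspe1, Cct2, Cct5, Cct3, Cct8, Cct4, Cct6a, Cct7 and Tcp1. By Max score it was Hspd1 and Hspe1, Cct3, Cct4, Cct7, Tcp1, Cct8, Cct6a, Cct5 and Cct2. Without replicates it cannot be said which neighbours in these orders differ. Below the mitochondrial pair, Cct2 and Cct5 led the Bio-Myc order and closed the Max order. Spearman's rho between the scores was 0.00 over the 9 promoters and 0.37 over the 2832 coding genes with both peaks. It is given as a description without a p-value. The 2832 were counted by gene and not by promoter, here and in the ratios below. Genes that share their peaks therefore each entered with the same scores. The points share their libraries and controls, and a score depends on the number of reads, which is unknown, and on the control, which differs between the lists. The ratio of the Max score to the Bio-Myc score ran from 0.477 at Cct2 and 0.631 at Cct5 to 3.57 at Tcp1 and 4.0 at Cct7, with a median of 1.53 over the promoters and of 1.61 over all coding genes with both peaks. At Hspd1 and Hspe1 it was 1.03.

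**Figure D3:**
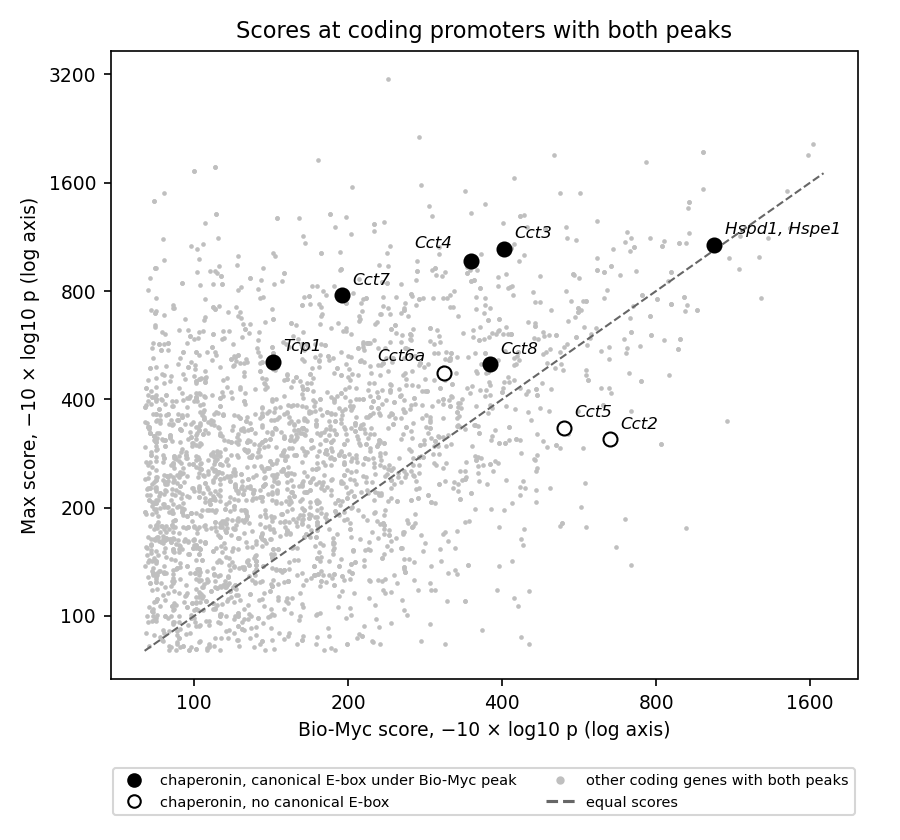
Bio-Myc score against Max score for the 2832 coding genes with both peaks (grey) and the 9 chaperonin promoters (large circles), on log axes in units of −10 times log10 of the MACS p-value. Filled circles have CACGTG under the Bio-Myc peak and open circles have none, and the dashed line marks equal scores, which are not equal binding since the lists are not on 1 scale. Cct2 and Cct5 lie below the line, Hspd1 and Hspe1 lie close to it, and the other 6 promoters lie above it.

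CACGTG was found under the Bio-Myc peak of 7 of the 10 chaperonin genes (Tcp1, Cct3, Cct4, Cct7, Cct8, Hspd1 and Hspe1), against 48.9% of coding genes with a Bio-Myc peak. Under the Max peak it was found at 6 of 10, against 36.2% of coding genes with a Max peak. Hspd1 and Hspe1 each entered both counts with their shared peak. The difference is Tcp1, whose CACGTG lies 169 bp outside the Max peak. The chaperonin peaks are wide, and a wider peak holds more sequence. Among coding genes whose peak was as wide as a chaperonin peak (1133 to 2127 bp in the Bio-Myc list, 811 to 1893 bp in the Max list), 56.0% of 1332 had CACGTG under the Bio-Myc peak and 42.6% of 4585 had it under the Max peak. In the top 10% of the Bio-Myc list, 69.8% of 427 coding genes had it.

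The middle of the peaks held none of these CACGTG. In the central 500 bp, 0 of 10 chaperonin genes had CACGTG in either list, where 34.0% of coding genes with a Bio-Myc peak and 27.3% of those with a Max peak had it. Among coding genes with peaks of the same range of widths the shares were 31.6% and 30.4%. The lists give no summit, so the centre is the midpoint of a peak and may lie away from its highest point. The nearest CACGTG to a centre was that in the 5′ UTR of Hspe1, at +186 from its start and at −299 from the start of Hspd1. It was 286.5 bp from the Bio-Myc centre and 264.5 bp from the Max centre.

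The positions of CACGTG differed from gene to gene. It lay upstream of Cct3 at −720, of Cct7 at −378 and of Cct8 at −443 from the reference TSS, and in introns of Tcp1 at +807 and of Cct4 at +826. At Cct3 and Cct7 a coding gene on the opposite strand starts nearer to the reference TSS than that, at 117 and 222 bp. At Tcp1 the Bio-Myc centre was 763.5 bp away, the largest distance among the 9 CACGTG under Bio-Myc peaks. At Hspd1 the 4 motifs stood on both sides of the peak centre, at +600 and +397 in an intron and at −299 and −571 upstream. From Hspe1 the same 4 are at −713, −510, +186 and +458.

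CACGCG was found under both peaks at 5 of the 10 genes (Cct3, Cct5, Cct8, Hspd1 and Hspe1), in part closer to the centre. The share of all bound coding genes with CACGCG under a peak was not computed. Within 1 kb of any TSS, CACGCG was found at 5 of 10 chaperonin genes and at 38.5% of coding genes. At Cct8 one CACGCG lay in the 5′ UTR at +53, which was 51 bp from the Bio-Myc centre, and another at −432, next to CACGTG in the stretch shown above. At Cct3 it lay at −177, 143 bp from the Bio-Myc centre and 93 bp from the Max centre. At the mitochondrial pair it lay in the 5′ UTR of Hspd1 at +116, 128.5 bp from the Bio-Myc centre, and in the intron at +413, next to CACGTG in stretch b. Cct5, without CACGTG under its peaks, had CACGCG at −378, and the opposite-strand gene Fam173b has its reference start 271 bp from that of Cct5. With both motifs counted together, 8 of 10 genes had one under the Bio-Myc peak and 7 of 10 under the Max peak. No share of coding genes was computed for the motifs together, so these counts have no background.

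Cct2 and Cct6a had neither CACGTG nor CACGCG under their peaks. Under the peaks of Cct2 there was a CATGTG, another E-box variant, in an intron at +233, which lay 5.0 bp from the Bio-Myc centre and 52.5 bp from the Max centre. CATGTG also lay under both peaks of Tcp1 and Cct5 and under the Max peak of Cct7. It lies within 1 kb of a TSS at 76.7% of coding genes, and its share under their peaks was not computed. Under the peaks of Cct6a CACGTG and CACGCG were both missing, and so were CATGTG and GAANNTTC. The 3 genes without CACGTG held the Bio-Myc ranks 71 (Cct2), 118 (Cct5) and 419 (Cct6a). Both the lowest Bio-Myc score, at Tcp1, and the highest, at Hspd1 and Hspe1 (rank 15), belonged to genes with CACGTG. In the top 10% of the Bio-Myc list 69.8% of coding genes had CACGTG under the peak, against 48.9% of all coding genes with a Bio-Myc peak. Among all coding genes with both peaks, the Bio-Myc score was above the Max score in 20.3% of 1481 genes with CACGTG under the Bio-Myc peak and in 23.3% of 1351 without it.

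Searched on both strands within 1 kb of any annotated TSS, CACGTG was found at 8 of 10 chaperonin genes and at 39.0% of coding genes. The eighth gene is Cct5, where it lies near annotated starts inside the gene and outside both peaks. CACGCG was found at 5 of 10 and at 38.5% of coding genes, and CATGTG at 6 of 10 and at 76.7%. GAANNTTC was found at 9 of 10 and at 54.8%, with Cct5 as the gene without it. A gene with more annotated starts has a longer window, and the chaperonin genes had 1 to 9 starts. At the divergent Hspd1 and Hspe1 promoter GAANNTTC lay at −47 from the reference start of Hspd1 and at −68 from that of Hspe1. That site was 33.5 bp from the Bio-Myc centre and 11.5 bp from the Max centre. A match is a stretch of letters, and binding of a factor to any one of these sites was not measured.

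Most of the chaperonin promoters were shared with a gene on the other strand. A TSS of a protein-coding gene on the opposite strand lay under the Bio-Myc peak of 7 of 10 genes, at 6 of the 9 promoters, against 24.6% of coding genes with a Bio-Myc peak. Hspd1 and Hspe1 count here as partners of each other. A wider peak can take in more starts, and no share among peaks of like width was computed. Tcp1 faces Mrpl18, which encodes a protein of the mitochondrial ribosome, with starts as near as 16 bp. The reference starts of this pair are 37 bp apart. Cct5 faces Fam173b, with starts as near as 5 bp and reference starts 271 bp apart, and 2 of the 3 Fam173b starts lay under the peaks. Cct3 faces 1700021C14Rik with reference starts 117 bp apart, and Cct7 faces 1700040I03Rik at 222 bp. Cct6a faces Psph, the phosphatase of the last step of serine synthesis. Of 4 Psph starts 1 lay under the peaks, 186 bp away, and the reference start was 7995 bp away. At all 6 promoters at least 1 start of the partner lay under both the Bio-Myc and the Max peak, so the peak cannot be assigned to 1 gene of the pair by position. Cct2, Cct4 and Cct8 had no such partner. Among all coding genes with a Bio-Myc peak, CACGTG in the central 500 bp was found at 26.4% of 806 genes with an opposite coding TSS under the peak and at 36.5% of 2469 without.

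Most chaperonin genes kept their Bio-Myc peak at stricter limits on the p-value. At 1e-11 all 10 still had one, and 10.2% of coding genes did. At 1e-15 Tcp1 was lost and 9 remained, with 6.85% of coding genes, and at 1e-20 Cct7 was lost as well and 8 remained, with 4.43%. All 10 kept a Max peak at each of these limits, where 28.8%, 22.6% and 17.0% of coding genes did.

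The other folding genes were taken from lists of related chaperones and clients, 54 genes in all. Bio-Myc peaks were found at 29 of them, Max peaks at 40 and both at 26. The shares over all coding genes were 14.6% for Bio-Myc, 34.8% for Max and 12.7% for both. Few relatives and helpers of the chaperonin had a Bio-Myc peak, but so did few coding genes in general (14.6%), and the counts in these short lists are near that background. Prefoldin delivers unfolded actin and tubulin to the cytosolic chaperonin, and 1 of its 6 genes had a Bio-Myc peak. This was Pfdn6, listed as H2-Ke2, with a Bio-Myc score of 199 (rank 965) and a Max score of 83.5 (rank 11111). Pfdn2 and Pfdn4 had a Max peak only, with scores of 228 and 137, and Pfdn1, Pfdn5 and Vbp1 had neither. Of the 3 phosducin-like genes, whose products bind the chaperonin, Pdcl, Pdcl2 and Pdcl3, 0 had a peak in either list.

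The chaperonin-like genes, related in sequence to the Cct genes, had no gene with both peaks among 5. Mkks had a Bio-Myc peak only, with a score of 242 (rank 657). Cct6b, a close relative of Cct6a known from testis, had a Max peak only, with a score of 96.2. Bbs10 and Bbs12, which with Mkks help assemble the BBSome of the cilium, had Max peaks only, with scores of 101 and 163. Cct8l1 had neither.

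By the share of genes with a peak, the lists of the large chaperone systems stood closer to the chaperonin genes. The shares over all coding genes were 14.6% for Bio-Myc and 34.8% for Max. In the cytosolic list of Hsp70, Hsp90 and cochaperones, 12 of 13 genes had a peak of Bio-Myc, 12 had one of Max and 11 had both. Its highest Bio-Myc scores were those of Ptges3, the Hsp90 cochaperone p23, at 348 (rank 333), and Ahsa1, which stimulates the ATPase of Hsp90, at 276 (rank 506). Of the 13 genes only Ptges3 stood in the top 10% of the Bio-Myc list, where 7 of 10 chaperonin genes did. The lowest Bio-Myc score in the cytosolic list was 82.2 (rank 3846) at Dnaja1. In the mitochondrial list 6 of 10 genes were bound by Bio-Myc and 7 by Max. There Hspa9, the mitochondrial Hsp70 that hands proteins on to Hsp60, had 504 (rank 131) for Bio-Myc and 1905 (rank 31) for Max, above Hspd1 and Hspe1 in the Max list. Clpp, the subunit of a mitochondrial protease, had 371 (rank 288) and 730 (rank 404).

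In the endoplasmic reticulum, which has no chaperonin, 5 of 7 genes were bound by Bio-Myc and 6 by Max. The highest Bio-Myc scores there were 375 (rank 282) at Pdia3, a disulfide isomerase, and 254 (rank 614) at Canx, the lectin chaperone calnexin. Among actin and tubulin, the clients of the cytosolic chaperonin, 4 of 10 genes carried a Bio-Myc peak and 9 carried a Max peak. The shares over all coding genes were again 14.6% (Bio-Myc) and 34.8% (Max). Tuba1b had the highest Bio-Myc score of the clients, 319 (rank 389), followed by Actg1 at 257 (rank 599).

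**Figure D4:**
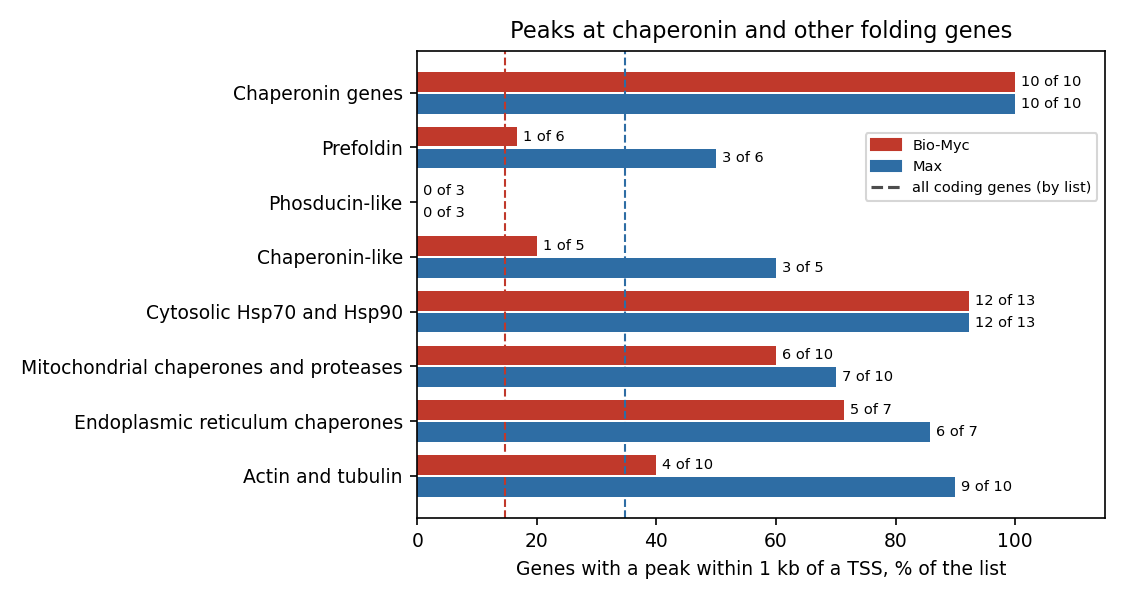
Share of genes with a Bio-Myc peak (red) or a Max peak (blue) within 1 kb of a TSS, in % of each list, for the 10 chaperonin genes and 7 lists of other folding genes, with the count beside each bar. Dashed lines mark the shares of all coding genes (14.6% and 34.8%). The chaperonin genes are at 10 of 10 in both lists, and the phosducin-like genes at 0 of 3.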

How the data were processed

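Per the labels and methods, the authors used CASAVA 1.8 (its role is not given in the sources used here), aligned reads with Bowtie 0.12.7 against mm9, keeping reads with 1 place in the genome and at most 2 mismatches, counted duplicates once, and ran MACS 1.4.1 with the Mock or IgG ChIP as control and a p-value limit of 1e-08. The deposited lists give a score for each peak, −10 times the log10 of the MACS p-value, which depends on the number of reads and on the control, so scores were ranked within a list. The ratio and order of a gene's scores in the 2 lists were set only against those of other genes with both peaks. Unique mapping leaves out most repeated sequence.

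TSSs were taken from GENCODE M1 on NCBIM37, whose chromosome lengths equal those of mm9, and coordinates are 1-based. A gene had a peak if one came within 1 kb of any of its TSSs by at least 1 bp. For the chaperonin genes and the shares over coding genes the nearest such peak was used. Scores of the other folding genes are not always those of the nearest peak. At Hsp90aa1, with 2 Bio-Myc peaks, the score taken was 141 and that of the nearest peak was 96.78. The reference TSS is the start of the transcript listed first by name. Ties take the best rank. Motifs were searched on both strands, and a motif position is that of its first base in the direction of the gene. A peak's centre is its midpoint. Of the 54 other folding genes, Pfdn6 and Tubb4b were matched as H2-Ke2 and Tubb2c through RefSeq synonyms. In each list of other folding genes the 2 genes with the highest Bio-Myc score were named, and also each prefoldin and chaperonin-like gene without both peaks. The phosducin-like genes were named after their values were seen. The members and lists were chosen with earlier results of these data known. Alternatives were other windows, p-value limits, parts of peaks and ways of ranking. With 1 library per ChIP no test was made.

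Sequence was read with pysam 0.24.0 and figures were drawn with matplotlib 3.10.9, under Python 3.11.15, with scipy 1.17.1 for Spearman's rho and numpy 2.4.6 for ranks. The counting steps were tested on made-up peaks, genes and sequence, and 4 of 4 gave the exact answer.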

Additional observations from a re-analysis of the deposited data

How the results depend on the processing

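The counts of chaperonin genes with a Bio-Myc peak, a Max peak or both were recomputed under 10 settings of window, p-value limit, choice of TSS and list length. A count changed under 2 of them, the limits of 1e-15 and 1e-20, where Bio-Myc and both peaks fell from 10 to 9 and 8. The count of genes with CACGTG under the peak fell from 7 (Bio-Myc) and 6 (Max) to 0 and 0 in the central 500 bp and to 0 and 0 in the central 200 bp. The cause was not tested. With CACGCG counted as well it was 8 and 7 under whole peaks and, in the central 500 bp, an alternative chosen after seeing the data, 4 and 4. No share of coding genes was computed for the counts with CACGCG. The median rank by gene, 255.5 for Bio-Myc and 631.5 for Max, was 225.5 and 493.0 when only peaks at coding promoters were ranked, which shortens the lists. It was 273 and 928 with Hspd1 and Hspe1 counted once, also chosen after seeing the data, which takes out one entry at the top rank of the genes. Taking the highest-scoring peak in place of the nearest left both medians as they were. No paired analysis was possible because each ChIP is 1 library. The depth is unknown, so the lists do not show whether a gene without a peak fell short of the limit for lack of reads.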
